A study of Mus musculus with 10 samples.

Results

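The genes of glycolysis, the tricarboxylic acid (TCA) cycle and the response to low oxygen were compared between mouse lung tip progenitors of the embryonic (E) stages E17.5 and E11.5. A list of 43 genes was drawn up by function, and a gene was measured where a probe set of the deposited table names it alone. This held for 40 of the 43 genes, out of 17813 genes in the table. *Gpi1*, *Gapdh* and *Eno1* were not analysed here. Each of the 40 genes rests on 1 probe set.

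RNA was hybridised to Affymetrix mouse arrays, with 5 arrays for each stage. The E17.5 samples were GFP+ cells, isolated by flow cytometry after trypsin/EDTA dissociation of lungs from Id2-CreER; Rosa26R-fGFP embryos. Their mothers had received tamoxifen at E16.5 (150 µg per g body weight), which turns on a lasting GFP label in cells with active *Id2*, so that the sorted cells were tip cells with some of their recent progeny. The E11.5 samples were tips microdissected by hand after dispase digestion, from embryos of the same labelled genotype, Id2-CreER; Rosa26R-fGFP. No tamoxifen was reported for E11.5. Stage, tamoxifen and isolation thus cannot be told apart. In such bulk samples, fewer cells of a type and less RNA per cell cannot be told apart either. The arrays of a stage are labelled biological replicates, but whether separate litters were used is not given, so p-values measure the spread between these arrays only.

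Glycolysis splits glucose into pyruvate in the cytosol. Pyruvate is then reduced to lactate, or enters the mitochondrion, where the pyruvate dehydrogenase complex turns it into acetyl-CoA for the TCA cycle. The hypoxia-inducible factors (HIFs) are pairs of an oxygen-labile alpha subunit and a stable beta subunit. They raise transcription of many glycolytic genes when oxygen is scarce, as it is in the embryo, and in mice the alpha subunit encoded by *Epas1* is needed for the late fetal maturation of surfactant-producing cells.

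Values are log2 signals as deposited, so that 1 unit is a 2-fold difference, and levels of different probe sets were not compared. Stages were compared with limma, as E17.5 minus E11.5, and calls were made where p, adjusted by Benjamini and Hochberg's method over all 17813 genes, was under 0.05. Changes are given as log2 fold changes, with a 95% confidence interval for genes that were not called. The median signal of an array was 7.14 to 7.23 at E17.5, against 7.01 to 7.14 at E11.5, and its upper quartile was 9.996 to 10.04 at E17.5, against 9.42 to 9.46 at E11.5. Because the upper quartiles differ, counts are also given after quantile normalization, which gives all arrays the same distribution, and after centring each array on its median.

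Of the 40 genes, 20 rose at E17.5, 13 fell and 7 were not called. Over all genes tested, 36.9% were higher and 31.5% were lower. After quantile normalization 18 of the genes were higher and 19 lower, where 31.9% of all genes were higher and 39.0% lower. Median centring gave 19 higher and 16 lower, against 33.2% and 36.9% of all genes, so the split of the whole table turned as well. A change of at least 2-fold was called for 13 higher and 4 lower genes, against a background of 24.2% and 16.3% of all genes. Every E17.5 array lay above every E11.5 array for 19 of the 40 genes and below for 11, where 32.3% and 26.3% of all genes did so. The median log2 fold change was 0.29 for the 40 genes and 0.03 for all genes. It was −0.04 for the 40 genes after quantile normalization, where all genes had −0.04, and 0.16 after median centring, where all genes had −0.10.

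**Figure D1:**
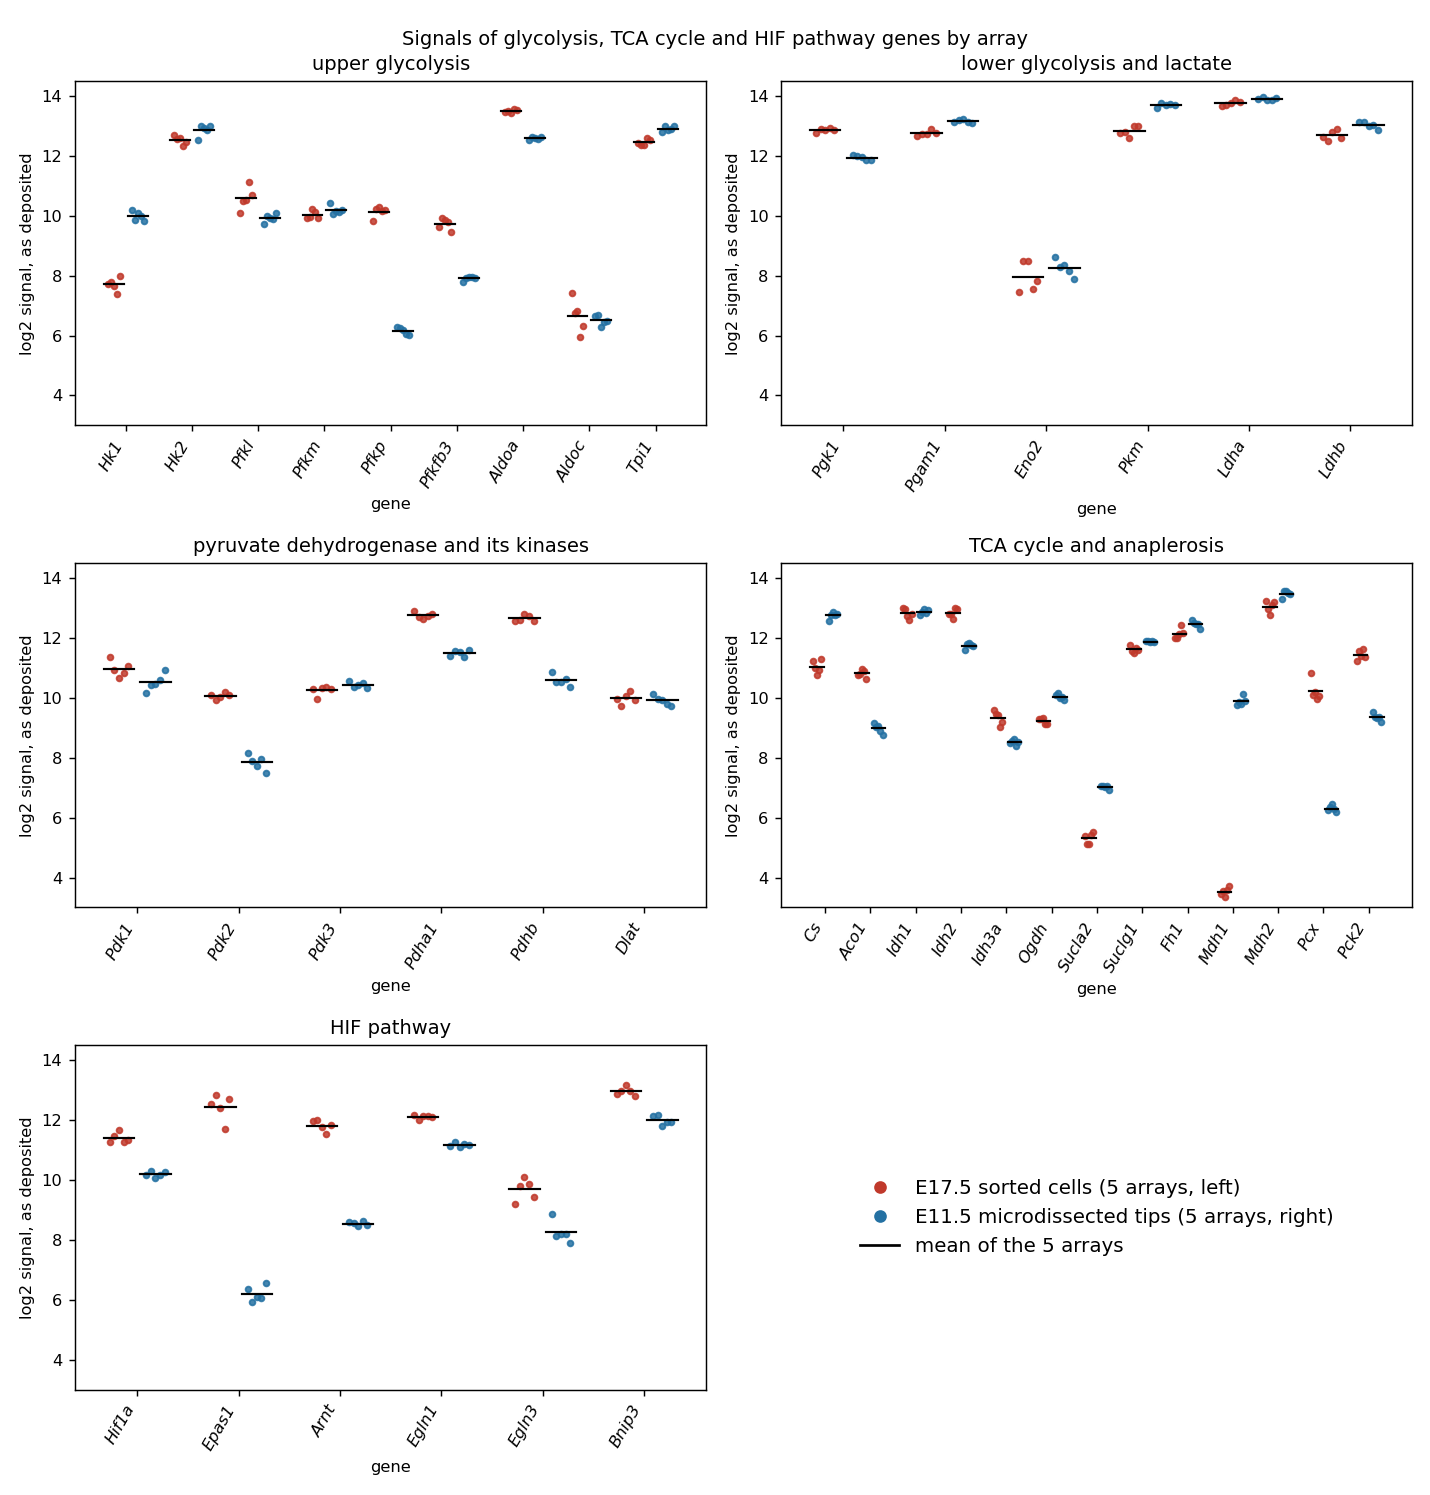
Log2 signals (vertical axes) of the 40 genes on each array, in 5 panels by role, with the 5 E17.5 arrays on the left of each gene in red, the 5 E11.5 arrays on the right in blue and a line at each mean. All 6 HIF pathway genes have every E17.5 array above every E11.5 array, whereas the TCA panel holds both *Mdh1*, with E17.5 signals of 3.34 to 3.73, and *Pcx*, with E17.5 signals of 9.96 to 10.84.

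The HIF pathway was the only role in which every measured gene was called in 1 direction. All 6 of its measured genes rose at E17.5, where 36.9% of all genes were higher. Of these 6, 4 rose at least 2-fold, against 24.2% of all genes. All 6 were also called higher after quantile normalization and after median centring. Their median log2 fold change was 1.32.

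*Epas1*, which encodes the alpha subunit HIF-2α, changed most among the genes that rose. Its signal was 12.54, 12.85, 12.42, 11.72 and 12.71 on the E17.5 arrays, against 6.37, 5.92, 6.09, 6.07 and 6.56 on the E11.5 arrays. The groups did not overlap, and the lowest E17.5 array, replicate 4, was still far above the highest E11.5 array. The difference in log2 signal was 6.24, or 75.8-fold (adjusted p = 5.3e-11 from limma). The E11.5 signals lay below the medians of their arrays, so the size of this fold is less certain. *Hif1a*, which encodes the more widely expressed HIF-1α, had signals of 11.26, 11.47, 11.68, 11.28 and 11.32 at E17.5, against 10.17, 10.32, 10.07, 10.18 and 10.28 at E11.5. It rose 2.30-fold (adjusted p = 3.3e-07 from limma), again with no overlap. The beta subunit gene *Arnt* had signals of 11.96, 11.996, 11.76, 11.55 and 11.82 at E17.5, against 8.59, 8.56, 8.47, 8.63 and 8.48 at E11.5, a rise of 9.64-fold (adjusted p = 2.9e-11 from limma). The *Arnt* arrays of each stage lay close together and far from those of the other stage. The only *Arnt* probe set has the suffix _s, so the gene was not measured when probe sets of that kind were left out.

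*Egln1* and *Egln3* encode prolyl hydroxylases that use oxygen to mark HIF alpha subunits for destruction, and both are known HIF targets. *Egln3* gave 9.21, 9.81, 10.10, 9.87 and 9.45 at E17.5, against 8.87, 8.12, 8.19, 8.20 and 7.88 at E11.5. The groups did not overlap, but E17.5 replicate 1 and E11.5 replicate 1 came near each other. The rise was 2.70-fold (adjusted p = 4.2e-05 from limma). *Egln1* gave 12.16, 11.996, 12.12, 12.12 and 12.12 at E17.5, against 11.13, 11.26, 11.12, 11.19 and 11.16 at E11.5, a rise of 1.91-fold with little spread in either group (adjusted p = 1.7e-07 from limma). *Bnip3*, a HIF target whose product takes part in the removal of mitochondria, rose 1.95-fold, with a mean signal of 12.96 ± 0.13 at E17.5 and 11.995 ± 0.15 at E11.5 (SD, n = 5 each).

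Markers of other cell types differed between the same samples. All 10 endothelial markers rose at E17.5, and their mean signal was 8.89 to 10.87 at E17.5, against 5.13 to 6.24 at E11.5. Of 13 leukocyte markers 12 were higher, with a list mean of 9.78 to 10.41 at E17.5, against 5.67 to 6.40 at E11.5. *Epas1* is known to be strongly expressed in endothelium as well as in maturing alveolar epithelium. The E17.5 array with the lowest *Epas1* signal, replicate 4, also had the lowest endothelial mean of its stage, 8.89, and the lowest leukocyte mean, 9.78. The highest *Epas1* signals, on replicates 2 and 5, came with the highest endothelial means, 10.55 and 10.87, and with leukocyte means of 10.41 and 9.85. Replicates 1 and 3 ranked differently, with *Epas1* at 12.54 and 12.42 and endothelial means of 9.39 and 9.74. The endothelial gene *Pecam1* had signals of 10.28, 11.52, 10.40, 9.50 and 11.85 at E17.5, against a mean of 5.44 at E11.5. Without E17.5 replicate 4 the log2 fold change of *Epas1* was 6.43. Immediate early genes, which respond within minutes to handling of cells, were higher for all 13 listed genes, with a list mean of 12.36 to 12.63 at E17.5, against 7.73 to 7.91 at E11.5. Embryonic globins were lower, and 5 of 8 erythroid markers fell, with a list mean of 5.47 to 6.16 at E17.5, against 7.55 to 8.72 at E11.5. The part of these cells and of handling in the changes of the metabolic and HIF genes was not tested.

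The samples also carried the markers of the labelled cell type. The mean signal of 15 pan-epithelial markers was 12.43 to 12.69 at E17.5, against 11.54 to 11.78 at E11.5, and 10 of them were higher and 3 lower. Of 10 lung epithelium and tip markers 4 were higher and 4 lower, with a mean of 11.32 to 11.66 at E17.5, against 10.23 to 10.45 at E11.5. The higher ones were *Id2* and the surfactant genes *Sftpa1*, *Sftpb* and *Sftpc*, which rose 85.5-fold, 31.1-fold and 5.83-fold. *Foxa1* was 1.40-fold and *Foxa2* 1.90-fold lower, and *Nkx2-1* was not called. Among the tip markers, *Id2*, the gene that drives the Cre, was 4.28-fold higher at E17.5, *Etv5* was 2.55-fold lower, *Etv4* was 3.65-fold lower and *Sox9* was not called, with a mean signal of 9.58 at E17.5 and 9.60 at E11.5. Of 13 mesenchymal markers 5 were higher and 5 lower, and their mean was 7.90 to 8.84 at E17.5, against 7.65 to 8.55 at E11.5.

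**Figure D2:**
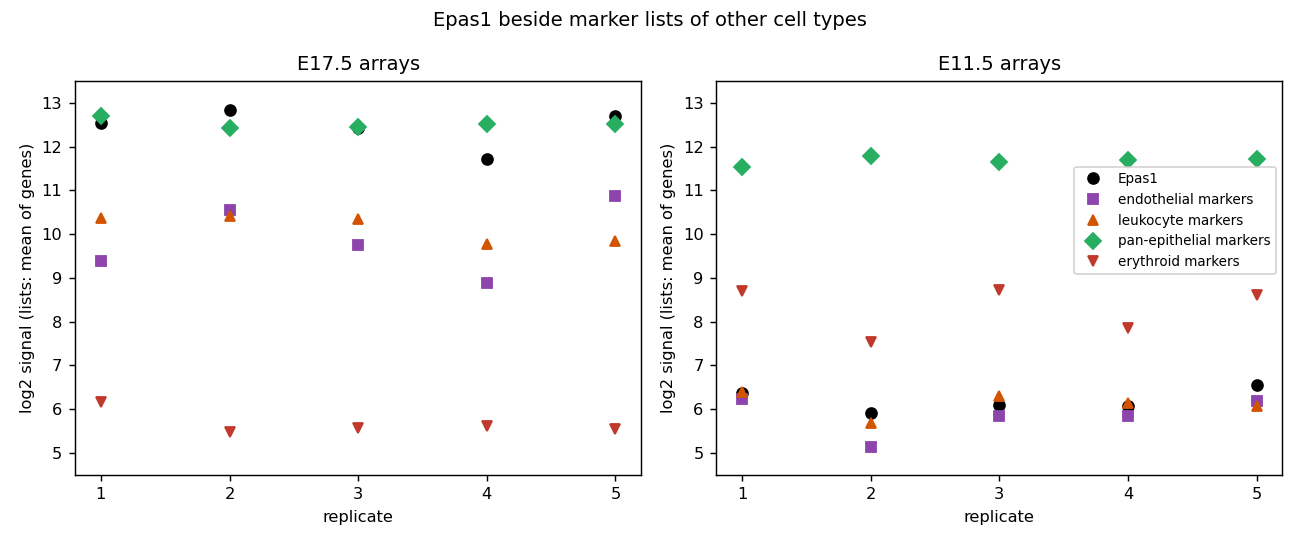
Log2 signal of *Epas1* and mean log2 signal of the endothelial, leukocyte, pan-epithelial and erythroid marker lists (vertical axes) on each array (horizontal axes, replicate number), with E17.5 in the left panel and E11.5 in the right one. Among the E17.5 arrays the *Epas1*, endothelial and leukocyte points are all lowest on replicate 4, at 11.72, 8.89 and 9.78, and the endothelial and leukocyte lists lie at or below 6.40 on all E11.5 arrays.

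HIF proteins bind DNA at short sites that often hold ACGTG, and this letter run was looked for in the promoters of the listed genes. Windows of 250 bases before to 50 bases after each RefSeq transcription start (build GRCm38.p6) were found for 38 of the 40 genes, and none was used for *Idh3a* and *Epas1*. ACGTG was searched on both strands, which reads as CACGT on the other strand. Where the run is CACGTG, an E-box that other factors bind, both strands match and overlap. At least 1 window held ACGTG for 20 of the 38 genes (52.6%), against 26.2% of the 14167 measured genes that have a window. CACGTG was present for 8 of the 38 genes (21.1%), against 10.3% of the measured genes. The share was 10 of 18 among genes higher at E17.5, 6 of 13 among genes lower at E17.5 and 4 of 7 among genes that were not called. By role it was 4 of 5 for the HIF pathway, 6 of 9 for upper glycolysis, 4 of 6 for lower glycolysis and lactate, 3 of 6 for pyruvate dehydrogenase and its kinases and 3 of 12 for the TCA cycle. A match describes the letters and does not show binding. The list was drawn up by function and includes known HIF targets, so its share of matches describes the choice of genes, not their change.

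The 250 bases before the start are shown for the 6 HIF pathway and glycolytic genes with the largest change among those with a match there. *Hk1* would have been among them, but its matches lie after the start. They run 5′ to 3′ on the strand of the gene, with the matched letters in capitals.
Hif1a, chr12:73907617-73907866, plus strand: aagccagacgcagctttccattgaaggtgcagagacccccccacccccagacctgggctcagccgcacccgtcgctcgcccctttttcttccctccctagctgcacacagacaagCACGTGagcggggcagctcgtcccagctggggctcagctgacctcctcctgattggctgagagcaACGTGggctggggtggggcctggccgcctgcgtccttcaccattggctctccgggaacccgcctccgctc
Egln1, chr8:124949255-124949504, minus strand: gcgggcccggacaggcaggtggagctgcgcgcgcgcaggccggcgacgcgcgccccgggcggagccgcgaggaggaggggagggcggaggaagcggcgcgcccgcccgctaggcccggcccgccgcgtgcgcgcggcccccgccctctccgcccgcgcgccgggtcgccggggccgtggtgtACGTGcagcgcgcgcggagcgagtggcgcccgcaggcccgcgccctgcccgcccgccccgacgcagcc
Egln3, chr12:54203875-54204124, minus strand: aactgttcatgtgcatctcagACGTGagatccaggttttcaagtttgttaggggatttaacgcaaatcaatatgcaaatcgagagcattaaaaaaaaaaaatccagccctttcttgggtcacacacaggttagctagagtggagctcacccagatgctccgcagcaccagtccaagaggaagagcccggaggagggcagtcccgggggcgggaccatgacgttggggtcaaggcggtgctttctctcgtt
Bnip3, chr7:138909507-138909756, minus strand: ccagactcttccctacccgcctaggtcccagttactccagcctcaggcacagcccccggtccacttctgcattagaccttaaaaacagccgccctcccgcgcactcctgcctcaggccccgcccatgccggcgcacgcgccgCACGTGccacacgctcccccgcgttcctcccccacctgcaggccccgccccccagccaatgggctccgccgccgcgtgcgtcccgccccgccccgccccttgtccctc
Pfkfb3, chr2:11502091-11502340, minus strand: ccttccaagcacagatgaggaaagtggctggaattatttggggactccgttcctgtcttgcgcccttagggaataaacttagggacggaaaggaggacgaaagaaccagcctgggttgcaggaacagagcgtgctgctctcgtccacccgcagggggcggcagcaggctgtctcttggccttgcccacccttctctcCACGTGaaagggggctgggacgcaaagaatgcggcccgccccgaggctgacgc
Pgk1, chrX:106186850-106187099, plus strand: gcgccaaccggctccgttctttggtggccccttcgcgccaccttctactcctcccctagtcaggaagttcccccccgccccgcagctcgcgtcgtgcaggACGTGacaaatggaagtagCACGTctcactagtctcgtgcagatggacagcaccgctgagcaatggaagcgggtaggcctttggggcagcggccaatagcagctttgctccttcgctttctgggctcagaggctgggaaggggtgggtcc
In these sequences *Hif1a* holds a CACGTG and a separate ACGTG that begins 70 bases before the start. *Bnip3* and *Pfkfb3* hold a CACGTG, whose ACGTG begins 107 bases before the start in *Bnip3* and 52 bases before it in *Pfkfb3*. *Egln1* and *Egln3* hold a lone ACGTG, 68 and 229 bases before the start. *Pgk1* holds an ACGTG 150 bases and a CACGT 131 bases before the start. The changes of these 6 genes differed in size although all rose, from 1.90-fold for *Pgk1* to 3.56-fold for *Pfkfb3*.

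Upper glycolysis, from hexokinase to triose phosphate isomerase, changed in both directions. Of 9 measured genes 4 rose, 3 fell and 2 were not called. The shares of 44.4% higher and 33.3% lower lay near the 36.9% and 31.5% of all genes. For this role quantile normalization gave 3 higher and 4 lower and median centring 4 and 4. The median log2 fold change was 0.14.

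*Pfkp*, the platelet-type subunit of phosphofructokinase, which carries out the committed step of glycolysis, rose most. It had signals of 9.81, 10.23, 10.29, 10.16 and 10.19 at E17.5, against 6.27, 6.24, 6.20, 6.06 and 6.01 at E11.5. This was 15.8-fold, with no overlap (adjusted p = 1.1e-11 from limma), and the E11.5 signals lay below the medians of their arrays. *Pfkl*, the liver-type subunit, had signals of 10.10, 10.48, 10.54, 11.14 and 10.71 at E17.5, against 9.74, 10.01, 9.93, 9.88 and 10.10 at E11.5. The lowest E17.5 array and the highest E11.5 array almost met. The log2 fold change was 0.66 (adjusted p = 0.0031 from limma), and after quantile normalization it was 0.07 and no longer called (adjusted p = 0.73). *Pfkm*, the muscle-type subunit, had signals of 9.92, 9.95, 10.23, 10.12 and 9.91 at E17.5, against 10.44, 10.07, 10.17, 10.13 and 10.18 at E11.5. The groups overlapped, and the log2 fold change was −0.17 (95% interval −0.39 to 0.05). *Pfkfb3*, whose product makes the allosteric activator of phosphofructokinase, had signals of 9.63, 9.92, 9.87, 9.80 and 9.47 at E17.5, against 7.78, 7.93, 7.95, 7.96 and 7.92 at E11.5. It rose 3.56-fold with no overlap (adjusted p = 6.0e-09 from limma).

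Hexokinases trap glucose in the cell by phosphorylation. *Hk1*, the hexokinase of most adult tissues, fell. Its signal was 7.72, 7.79, 7.66, 7.39 and 8.001 at E17.5, against 10.19, 9.86, 10.11, 9.98 and 9.84 at E11.5, which was 4.87-fold lower with no overlap (adjusted p = 4.3e-09 from limma). *Hk2*, a HIF-responsive hexokinase, gave 12.68, 12.56, 12.61, 12.32 and 12.45 at E17.5, against 12.55, 13.00, 12.93, 12.87 and 13.00 at E11.5. Only E11.5 replicate 1 reached into the E17.5 range. *Hk2* fell 1.27-fold (adjusted p = 0.015 from limma).

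Aldolases split the 6-carbon sugar into trioses. *Aldoa*, the general aldolase, had signals of 13.46, 13.49, 13.44, 13.55 and 13.54 at E17.5, against 12.52, 12.64, 12.61, 12.57 and 12.63 at E11.5. It rose 1.87-fold with no overlap (adjusted p = 1.7e-07 from limma). *Aldoc*, the brain-type aldolase, was dim, with 7.44, 6.74, 6.82, 5.96 and 6.31 at E17.5, against 6.66, 6.69, 6.28, 6.46 and 6.50 at E11.5. Its E17.5 arrays enclosed all E11.5 arrays, and the log2 fold change was 0.14 (95% interval −0.36 to 0.63), with −0.060 when E17.5 replicate 1 was left out. *Tpi1*, which interconverts the trioses, fell by 0.45 on the log2 scale (adjusted p = 0.00035 from limma), with a mean of 12.46 ± 0.10 at E17.5 and 12.91 ± 0.09 at E11.5 (SD, n = 5 each).

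Lower glycolysis and lactate formation had 1 higher, 3 lower and 2 uncalled genes of 6, where 36.9% of all genes were higher and 31.5% lower. No gene of this role changed 2-fold. Quantile normalization gave 1 higher and 5 lower, and median centring 1 and 4. The median log2 fold change was −0.33.

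The gene that rose was *Pgk1*, whose product forms the first ATP of the pathway. It gave 12.77, 12.89, 12.86, 12.93 and 12.86 at E17.5, against 12.02, 11.99, 11.97, 11.86 and 11.85 at E11.5. The rise was 1.90-fold with no overlap (adjusted p = 2.6e-07 from limma). *Pkm*, the pyruvate kinase of non-hepatic tissues, gave 12.76, 12.79, 12.60, 13.00 and 13.01 at E17.5, against 13.60, 13.75, 13.71, 13.72 and 13.69 at E11.5. It was 1.82-fold lower, again with no overlap (adjusted p = 4.2e-06 from limma). The probe set was read as a whole, with no split into *Pkm* splice forms. *Pgam1*, phosphoglycerate mutase, gave 12.67, 12.72, 12.73, 12.88 and 12.76 at E17.5, against 13.14, 13.20, 13.25, 13.15 and 13.09 at E11.5, and fell 1.33-fold without overlap (adjusted p = 0.00036 from limma).

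Lactate dehydrogenase is a tetramer of subunits from *Ldha*, which favours lactate formation, and *Ldhb*. *Ldha* had signals of 13.68, 13.70, 13.75, 13.86 and 13.82 at E17.5, against 13.90, 13.96, 13.88, 13.88 and 13.93 at E11.5. Every E17.5 array lay below every E11.5 array, although the gene was not called, with a log2 fold change of −0.15 (95% interval −0.31 to 0.01). It was called lower after quantile normalization, at −0.49, and after median centring, at −0.28. *Ldhb* had signals of 12.62, 12.51, 12.79, 12.91 and 12.60 at E17.5, against 13.12, 13.13, 13.00, 13.03 and 12.87 at E11.5. The groups overlapped at 1 array of each stage, and *Ldhb* fell by 0.34 on the log2 scale (adjusted p = 0.0073 from limma). The neuron-enriched enolase gene *Eno2* had a log2 fold change of −0.31 (95% interval −0.79 to 0.18), and was called lower after quantile normalization, at −0.66.

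**Figure D3:**
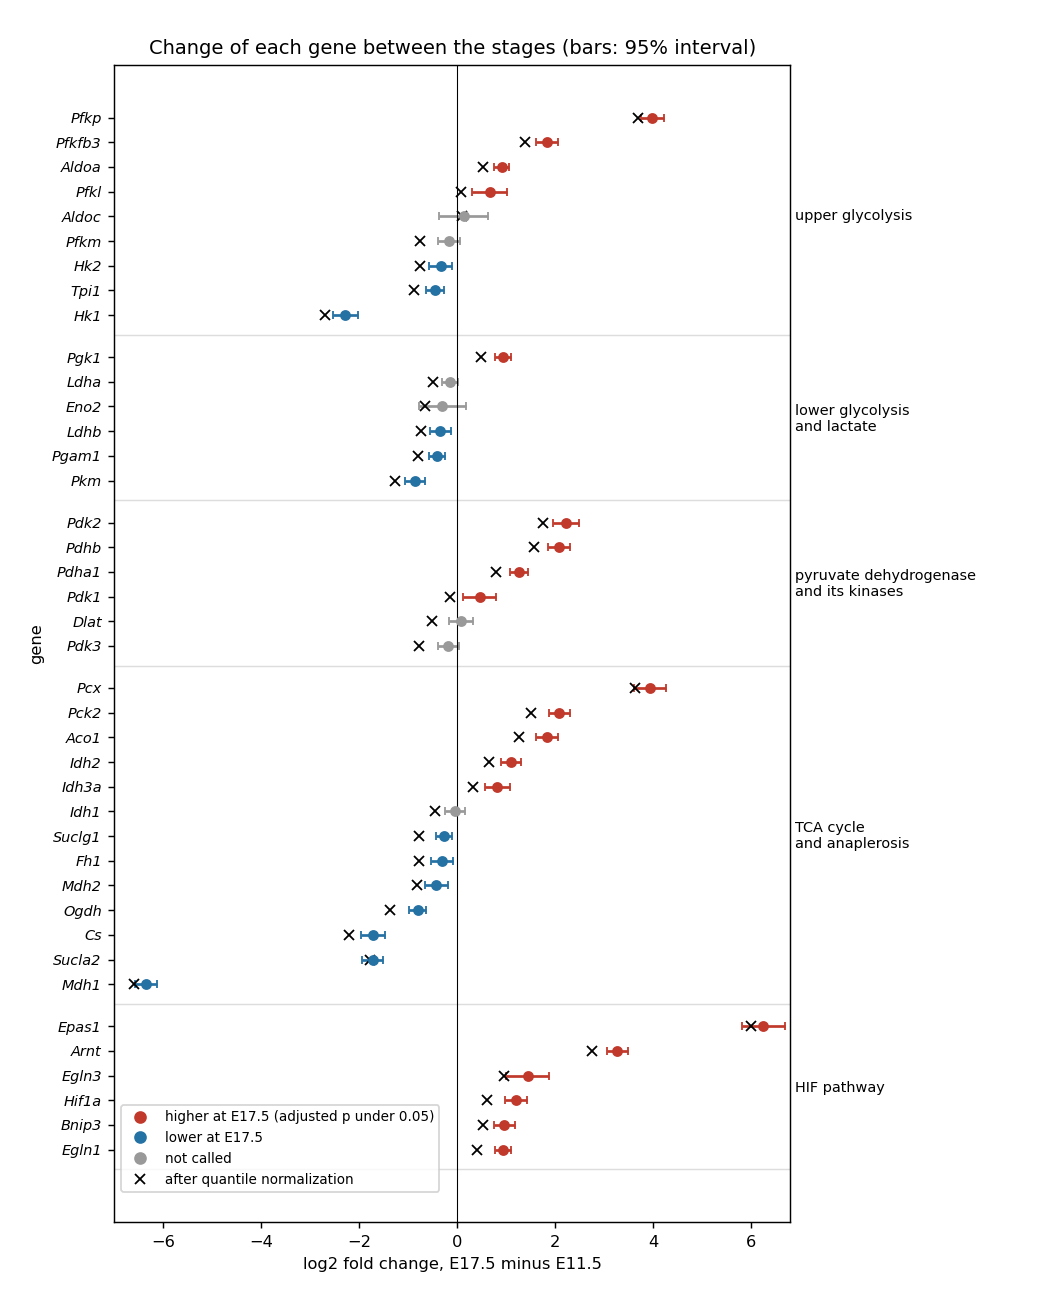
Log2 fold change of each gene (horizontal axis, E17.5 minus E11.5) with its 95% confidence interval, ordered within each role and coloured by the limma call, with crosses at the value after quantile normalization. The crosses lie to the left of the points, and those of *Pdk1* and *Dlat* cross 0, to −0.15 and −0.52.

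The pyruvate dehydrogenase complex and the kinases that switch it off by phosphorylation had 4 higher and no lower gene of 6 measured. Of all genes tested, 36.9% were higher and 31.5% lower. For this role quantile normalization gave 3 higher and 2 lower, and median centring 3 and 1. The catalytic subunit genes *Pdha1* and *Pdhb* both rose, and so did the kinase gene *Pdk2*.

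*Pdhb* gave 12.58, 12.60, 12.82, 12.74 and 12.57 at E17.5, against 10.88, 10.54, 10.55, 10.63 and 10.35 at E11.5, which was a rise of 4.21-fold (adjusted p = 3.2e-09 from limma). *Pdha1* gave 12.90, 12.70, 12.64, 12.74 and 12.81 at E17.5, against 11.41, 11.57, 11.52, 11.38 and 11.59 at E11.5, a rise of 2.40-fold (adjusted p = 4.0e-08 from limma). Neither gene had overlapping groups. *Dlat*, the acetyltransferase core of the complex, had a log2 fold change of 0.07 (95% interval −0.17 to 0.31), which turned to −0.062 after median centring and to −0.52, called lower, after quantile normalization (adjusted p = 0.00071 from limma).

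Among the kinases, *Pdk2* had signals of 10.09, 9.93, 10.03, 10.20 and 10.10 at E17.5, against 8.17, 7.90, 7.74, 7.96 and 7.496 at E11.5. It rose 4.65-fold with no overlap (adjusted p = 6.0e-09 from limma). *Pdk1*, a HIF target, had signals of 11.38, 10.92, 10.68, 10.83 and 11.05 at E17.5, against 10.17, 10.44, 10.47, 10.58 and 10.93 at E11.5. Its groups overlapped through E11.5 replicate 5. The log2 fold change was 0.45 (adjusted p = 0.022 from limma). The call was lost after quantile normalization, where the value was −0.15, after median centring, at 0.32, without E17.5 replicate 1, at 0.35, and without E11.5 replicate 1, at 0.37. *Pdk3* had signals of 10.29, 9.96, 10.32, 10.37 and 10.31 at E17.5, against 10.58, 10.35, 10.42, 10.49 and 10.32 at E11.5. The groups overlapped, with a log2 fold change of −0.18 (95% interval −0.39 to 0.04), called lower after both other scalings, at −0.78 after quantile normalization and −0.31 after median centring.

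The TCA cycle and the reactions that feed it had 5 higher, 7 lower and 1 uncalled gene of 13, with 4 higher and 3 lower by at least 2-fold. The shares called higher and lower were 38.5% and 53.8%, against 36.9% and 31.5% of all genes. Quantile normalization gave 5 higher and 8 lower genes, and median centring 5 and 7. The median log2 fold change was −0.27, and the role held both the largest fall of the list, that of *Mdh1*, and a rise of 15.3-fold, that of *Pcx*.

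*Mdh1*, the cytosolic malate dehydrogenase of the malate-aspartate shuttle, fell most. Its probe set had signals of 3.46, 3.54, 3.34, 3.60 and 3.73 at E17.5, against 9.75, 9.85, 9.79, 10.13 and 9.91 at E11.5. The E17.5 values lay below the lower quartile of their arrays, which was 4.56 to 4.66. The difference in log2 signal was −6.35 (adjusted p = 4.5e-13 from limma). At signals this low the size of a fold is uncertain, and no other probe set naming *Mdh1* alone was in the table. *Mdh2*, the mitochondrial enzyme, had signals of 13.24, 12.96, 12.76, 13.09 and 13.19 at E17.5, against 13.30, 13.56, 13.56, 13.51 and 13.46 at E11.5. It fell by 0.43 on the log2 scale, with no overlap but with E17.5 replicate 1 close to E11.5 replicate 1 (adjusted p = 0.0032 from limma).

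*Pcx*, pyruvate carboxylase, and *Pck2*, mitochondrial phosphoenolpyruvate carboxykinase, move carbon into and out of the cycle through oxaloacetate. *Pcx* had signals of 10.84, 10.11, 10.20, 9.96 and 10.06 at E17.5, against 6.24, 6.34, 6.47, 6.28 and 6.17 at E11.5, a rise of 15.3-fold (adjusted p = 2.7e-10 from limma). E17.5 replicate 1 was the highest, and the others were also far above the E11.5 arrays, whose *Pcx* signals lay below the array medians. *Pck2* had signals of 11.23, 11.58, 11.39, 11.62 and 11.35 at E17.5, against 9.53, 9.35, 9.34, 9.36 and 9.18 at E11.5, a rise of 4.23-fold without overlap (adjusted p = 1.9e-09 from limma).

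The 3 isocitrate dehydrogenase genes differed. *Idh2*, the mitochondrial NADP-dependent enzyme, had signals of 12.79, 12.80, 12.65, 13.00 and 12.98 at E17.5, against 11.60, 11.82, 11.83, 11.75 and 11.73 at E11.5. It rose 2.14-fold with no overlap (adjusted p = 3.5e-07 from limma). *Idh1*, its cytosolic counterpart, had signals of 13.00, 12.98, 12.72, 12.59 and 12.82 at E17.5, against 12.76, 12.86, 12.96, 12.84 and 12.92 at E11.5. These overlapped throughout, with a log2 fold change of −0.05 (95% interval −0.26 to 0.17), and *Idh1* was called lower after quantile normalization, at −0.46. *Idh3a*, a subunit of the NAD-dependent enzyme of the cycle, rose by 0.82 on the log2 scale, with all E17.5 arrays above the E11.5 arrays.

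The remaining genes that fell were spread over the cycle. *Cs*, citrate synthase, the entry step, was 3.28-fold lower, with a mean of 11.04 ± 0.22 at E17.5 and 12.76 ± 0.11 at E11.5 (SD, n = 5 each). *Sucla2*, the ATP-forming beta subunit of succinyl-CoA ligase, was 3.30-fold lower, with a mean of 5.31 ± 0.19 at E17.5 and 7.03 ± 0.06 at E11.5 (SD, n = 5 each), the first below the medians of its arrays and the second near them. *Ogdh*, a subunit of the oxoglutarate dehydrogenase complex, fell by 0.81, *Fh1*, fumarase, by 0.32 and *Suclg1*, the alpha subunit of succinyl-CoA ligase, by 0.27 on the log2 scale. *Aco1*, the cytosolic aconitase that doubles as an iron sensor, rose 3.56-fold.

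To compare the changes of genes with like roles, the difference of their log2 signals was taken within each array. Such a difference cancels a shift equal for all signals of an array, but not one that varies with the signal level. The scale of such a difference depends on the probe sets, so only its change between stages was tested, with a two-sided exact permutation test over the 10 arrays, whose smallest p is 0.00794. Of 12 pairs set up, 11 could be run, since *Eno1* was missing, and 10 passed after adjustment over the 11. The pairs were chosen with earlier results of these data known, so this count and the p-values are descriptive and give no independent support.

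*Epas1* minus *Hif1a* was 1.04 ± 0.43 at E17.5 and −4.00 ± 0.27 at E11.5 (SD, n = 5 each), a change of 5.04. *Mdh2* minus *Mdh1* changed by 5.92, *Pfkp* minus *Pfkl* by 3.32, *Hk2* minus *Hk1* by 1.94, *Pdk2* minus *Pdk1* by 1.77, *Idh2* minus *Idh1* by 1.14 and *Pfkm* minus *Pfkl* by −0.83. Each of these 7 had an exact permutation p of 0.00794 (adjusted 0.0125), with no overlap of the groups. Smaller changes were −0.77 for *Aldoc* minus *Aldoa* (exact permutation p = 0.0318, adjusted 0.0388), −0.63 for *Pdk3* minus *Pdk1* (exact permutation p = 0.0238, adjusted 0.0327) and −0.20 for *Ldhb* minus *Ldha* (exact permutation p = 0.0397, adjusted 0.0437). These 3 calls were lost when single arrays were left out, where fewer possible assignments of arrays raise the smallest p. A call can thus be lost with little move in the change, as for *Pdk3* minus *Pdk1* without E11.5 replicate 2, still −0.63. *Aldoc* minus *Aldoa* lost it without any array but E17.5 replicate 1, at −0.83 to −0.58, and after quantile normalization, at −0.43. *Ldhb* minus *Ldha* lost it without any array but E11.5 replicate 5, at −0.23 to −0.16. *Pdk3* minus *Pdk1* lost it without E17.5 replicates 1, 2 and 5 and without E11.5 replicates 1 to 4, at −0.63 to −0.51. *Egln3* minus *Egln1* changed by 0.50 and did not pass (exact permutation p = 0.0714, adjusted 0.0714), but passed without E17.5 replicate 1, at 0.63, and without E11.5 replicate 1, at 0.67.

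**Figure D4:**
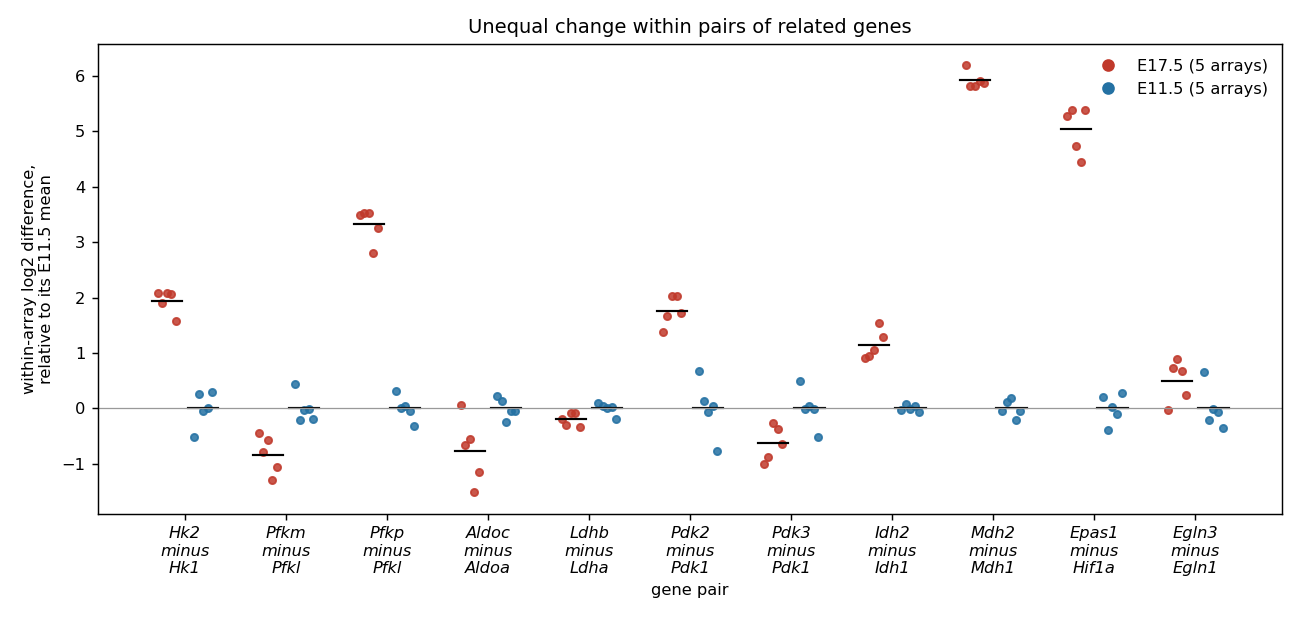
Within-array difference of the log2 signals of 2 genes (vertical axis), shifted so that the E11.5 mean of each pair is 0, for 11 gene pairs (horizontal axis), with the 5 E17.5 arrays left in red, the 5 E11.5 arrays right in blue and a line at each mean. The largest shifts are those of *Mdh2* minus *Mdh1*, by 5.92, and *Epas1* minus *Hif1a*, by 5.04, while the stages overlap for *Egln3* minus *Egln1*.

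Other genes of the same pathways were taken from lists of 129 genes, of which 114 were measured. Of these, 57 were higher, 36 were lower and 21 were not called, and their median log2 fold change was 0.31. Over all genes tested, 36.9% were higher and 31.5% lower, so that a list such as the pentose phosphate pathway lay near the background. HIF target genes had the highest median of these lists, 0.97, with 16 of 25 higher and 5 lower. The stress-responsive *Ndrg1* rose 48.5-fold, the angiogenic factor gene *Vegfa* 9.35-fold and the transcriptional repressor gene *Bhlhe40* 9.20-fold, while *Fam162a*, a mitochondrial protein gene, was 13.3-fold lower. HIF regulators were split, with 5 of 12 higher and 5 lower. *Hif1an*, the asparaginyl hydroxylase that blocks HIF co-activators, rose 6.11-fold, while *Vhl*, the ubiquitin ligase subunit that captures hydroxylated HIF, was 9.68-fold lower, *Arnt2*, a second beta subunit, 6.83-fold lower and *Cul2*, the scaffold of that ligase, 5.27-fold lower. The E17.5 means of *Fam162a*, *Vhl* and *Arnt2*, at 5.80, 6.67 and 5.14, lay below the medians of their arrays.

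Transport of glucose, lactate and pyruvate had 7 of 13 genes higher and 2 lower. The monocarboxylate transporter gene *Slc16a1* rose 7.09-fold, the glucose transporter gene *Slc2a12* 4.03-fold and the mitochondrial pyruvate carrier gene *Mpc1* 3.80-fold. The glucose transporter gene *Slc2a3* was 30.2-fold lower, with a mean of 4.42 ± 0.22 at E17.5, under the lower quartile of those arrays, and 9.34 ± 0.35 at E11.5 (SD, n = 5 each). In the other pyruvate dehydrogenase genes, 2 of 6 were higher and 3 lower. The kinase gene *Pdk4* rose 21.0-fold and *Dld*, the shared dehydrogenase subunit, 9.74-fold, whereas the phosphatase regulator gene *Pdpr* was 2.26-fold lower and the phosphatase gene *Pdp1* 1.38-fold lower.

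The remaining TCA cycle and shuttle genes had 10 of 21 higher and 7 lower. *Got2*, the mitochondrial transaminase of the malate-aspartate shuttle, rose 19.0-fold, *Sdha*, the flavoprotein of succinate dehydrogenase, 11.8-fold, *Dlst*, the core of the oxoglutarate dehydrogenase complex, 10.1-fold and *Me1*, the cytosolic malic enzyme, 5.65-fold. Other genes of glycolysis and glycogen had 14 of 29 higher and 11 lower. Here *Pgam2*, the muscle phosphoglycerate mutase, rose 12.05-fold, the hexokinase-like *Hkdc1* 10.1-fold and *Pfkfb4* 3.81-fold, and *Tigar*, a phosphatase that opposes glycolysis, was 3.97-fold lower. The E11.5 means of *Pgam2* and *Hkdc1*, 6.40 and 6.09, lay below the medians of their arrays, as did the E17.5 mean of *Tigar*, 6.41. The pentose phosphate pathway had 3 of 8 genes higher and 3 lower. Transketolase, *Tkt*, was 26.3-fold lower and *Pgd*, phosphogluconate dehydrogenase, 1.40-fold lower, and *H6pd* rose 4.69-fold and the epimerase gene *Rpe* 4.14-fold. The E17.5 mean of *Tkt*, 6.87, lay below the medians of its arrays.

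**Figure D5:**
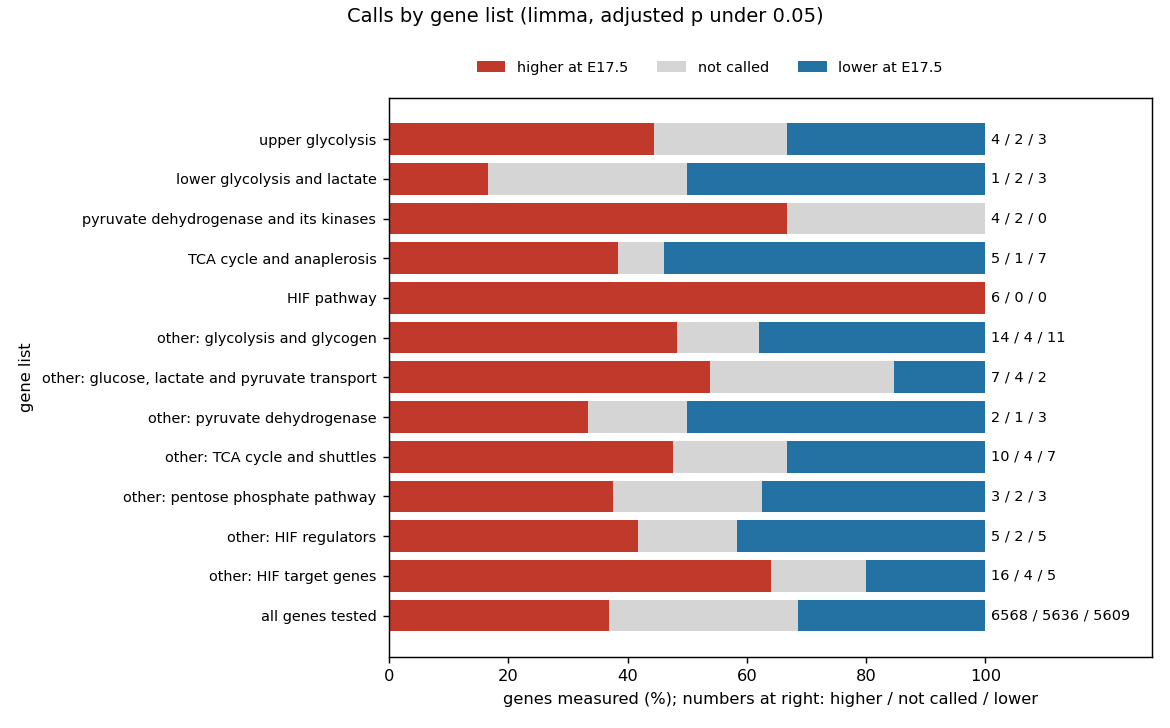
Share of measured genes (horizontal axis, percent) that limma called higher at E17.5 (red), not called (grey) or called lower (blue) for the 5 roles of the list, 7 lists of other pathway genes and all 17813 genes, with the gene counts at the right. The HIF pathway bar is red throughout, with 6 of 6 genes, next to 16 of 25 for other HIF target genes and 36.9% for all genes.

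Replicates agreed closely within a stage. The median SD of the 40 genes over the 5 arrays was 0.17 at E17.5 and 0.11 at E11.5, against 0.21 and 0.16 for all genes. It was highest for *Aldoc* at E17.5, at 0.56, and lowest for *Suclg1* at E11.5, at 0.02.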

How the data were processed

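RNA of 10 samples, 5 of E17.5 and 5 of E11.5, had been extracted (Qiagen RNeasy), amplified with NuGEN Ovation kits and hybridised by the authors, who used Bioconductor in R. The deposited values are log2 signals of 21204 probe sets, from 2.47 to 15.03, while no source used here gives their background correction or normalization. The platform annotation names 1 gene for 17981 probe sets, several for 514 and none for 2709. Only the first kind was used, and 17832 of these had an Entrez identifier found in RefSeq (GRCm38.p6). Where a gene had several (167 genes), the probe set of highest mean was taken. No pair of arrays was identical.

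The stage comparison used limma 3.58.1 (lmFit, eBayes) in R 4.3.3, without a filter. Benjamini-Hochberg adjustment ran over 17813 genes. Gene pairs were tested in Python 3.11.15 with scipy 1.17.1, and figures drawn with matplotlib 3.10.9. Precision is limited by the number of arrays. The members, roles, pairs, marker lists and lists of other genes were chosen with earlier results of these data known. Per-array values are given for the 3 genes of each role with the largest change and for members of gene pairs, and up to 4 called genes with the largest change are named from each other list. Promoter sequences are from RefSeq and were limited to the bases before the start. Alternatives were 2 scalings, the mean of probe sets, leaving out probe sets with the suffix _x, _s or _a, leaving out dim genes (mean under 7.18), trended robust moderation, a replicate block and leaving out each array.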

Additional observations from a re-analysis of the deposited data

Results flagged for a closer look

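Within the 5 arrays of a stage, 1 array stood apart from the rest (by Dixon's criterion, critical value 0.71) in 6 of the 80 gene and stage groups checked, where chance alone gives about 4. At E17.5, *Pfkp* was low on replicate 1, at 9.81 with the nearest array at 10.16, and *Pcx* was high on the same array, at 10.84 with the nearest at 10.20. Replicate 2 of E17.5 was low for *Pdk3*, at 9.96 against 10.29, and for *Egln1*, at 11.996 against 12.12. At E11.5, replicate 1 was low for *Hk2*, at 12.55 with the nearest array at 12.87, and for *Pfkfb3*, at 7.78 with the nearest at 7.92. The calls of these 6 genes did not change when the array was left out.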

How the results depend on the processing

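Of the 40 genes, 31 kept their direction and their side of the threshold in all settings tried (at most 17 for a gene), and 9 did not (*Pfkl*, *Pfkm*, *Aldoc*, *Eno2*, *Ldha*, *Pdk1*, *Pdk3*, *Dlat* and *Idh1*). Not every setting could turn a direction. The mean of probe sets, the suffix and dim filters, trended robust moderation and the block leave the fold change of a retained gene unchanged. The sign turned for *Pdk1* after quantile normalization (−0.15), for *Dlat* after quantile normalization (−0.52) and median centring (−0.062), for *Aldoc* without E17.5 replicate 1 (−0.060) and for *Idh1* without E17.5 replicate 4 (0.011). With 1 array left out, *Aldoc* ranged from −0.060 to 0.31 and *Idh1* from −0.091 to 0.011. Over the fits that left out 1 array, 19 to 20 genes were higher, 13 were lower and 7 to 9 of 11 gene pairs passed. In these fits 35.7% to 37.0% of all genes were higher and 30.2% to 31.5% lower. For the pairs, 1 array fewer also raises the smallest p that the permutation test can reach. Without probe sets of suffix _x, _s or _a only 24 genes were measured, 13 higher and 7 lower. There, 35.04% of all remaining genes were higher and 31.45% lower. Leaving out dim genes gave 20 higher and 11 lower of 37, where 48.8% of the remaining genes were higher and 35.1% lower, and trended robust moderation gave 20 and 14, where 37.1% and 31.7% of all genes were. The replicate numbers did not pair the arrays, since deviations of same-numbered arrays correlated at −0.29, −0.18, −0.01, −0.10 and 0.07 and no E17.5 array correlated best with its own number. With the replicate number as a block, 20 genes were higher and 13 lower, and over all genes 6385 and 5349, against 6568 and 5609 without it. For the gene pairs the block leaves a smallest exact permutation p of 0.0625 (adjusted 0.0688), so that 0 could pass. Signals near the background, as for *Mdh1* at E17.5, limit the size of a fold. E11.5 means of *Epas1*, *Pfkp*, *Pcx*, *Ndrg1*, *Pdk4*, *Pgam2*, *Hkdc1* and *Slc2a12* lay below the E11.5 array medians. The sizes of these rises are less certain too. E17.5 means of *Tkt*, *Vhl*, *Fam162a*, *Arnt2*, *Tigar*, *Pdpr* and *Etv4* lay below the E17.5 array medians, which likewise limits the size of these falls.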
